A study of Mus musculus with 15 samples.

Results

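The Hox genes described here were the 39 genes whose symbol in the authors' 4 deposited tables is Hoxa, Hoxb, Hoxc or Hoxd followed by a number, out of 27179 genes in each table. All 39 were in every table. They encode homeodomain transcription factors and fall into 4 clusters of the mouse genome, 11 genes in Hoxa, 10 in Hoxb, 9 in Hoxc and 9 in Hoxd. Members of different clusters that descend from the same ancestral gene share a number and are called paralogues, and there are 13 such paralogue groups.

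The order of the genes along a cluster matches the order in which they are used along the body axis: low numbers, at the 3' end, pattern the hindbrain and neck, and high numbers, at the 5' end, pattern the lower trunk, limbs and genital tract. Cultured fibroblasts are known to keep the Hox pattern of the body region they came from. In the developing kidney, Hox genes of group 11 act with Eya1 and Pax2 to switch on Six2 and Gdnf in the mesenchyme, and Hoxb7 is active in the ureteric bud and the duct it grows from.

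The RNA came from induced renal tubular epithelial cells (iRECs), a mouse line made from fibroblasts with introduced tubule transcription factors, Emx2, Hnf4a and Pax8 among them, which all groups carry. It was sequenced from 4 microenvironments and from 2D culture, 15 libraries in all. Matrigel, a basement membrane extract, fibrin, the polymer of blood clots, and collagen I, the main fibrillar collagen, each held hand-dispensed cells in 3D that assembled by themselves. Printed cultures combined fibrin with collagen I and were laid down by inkjet bioprinting with guided growth, and the 2D cells grew on plates without a gel. Each group had 3 libraries, from passages 35, 48 and 53, all grown for 7 days in the same renal epithelial medium. At each passage the 5 cultures were set up from the same cells, so the replicates are passages of 1 line and not animals. The p-values rest on the spread over these passages. Whether the authors' fit paired the cultures by passage is not given in the sources used here.

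Each of the authors' tables compares 1 microenvironment with the same 3 libraries in 2D and has 1 row of values per gene, with 0 columns per library. The depth of single libraries is therefore unknown. A base mean is the mean normalized read count of a gene over the 6 libraries of a table. A log2 fold change is the microenvironment over 2D, with the authors' standard error after ±, and a gene is said to have changed where the authors' adjusted p (DESeq2, Benjamini-Hochberg) was under 0.05. An implied level is the part of the base mean that the fold change assigns to a condition. The tables were normalized separately, and the level in 2D that they imply differed between the 4 tables by 3.72% to 8.91% for Hox genes with base means of 100 or more.

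Markers of the labelled cell type were present. Base means in the authors' deposited tables lay between 47158 and 64782 for the kidney cadherin Cdh16 and between 3286 and 4824 for the epithelial adhesion gene Epcam. The proximal tubule genes Slc34a1, 1.92 to 2.70, and Aqp1, 1.40 to 4.61, were close to 0 in the authors' deposited tables. Among 16 fibroblast markers Thy1 was at 0 in 3 of the authors' 4 deposited tables, and Vim had base means of 4996 to 6472.

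Several microRNA genes lie inside the Hox clusters, and their mature sequences show how the same product is encoded in an expressed and in a silent cluster. Those of the miR-10 and miR-196 families are given here from RefSeq (GRCm38.p6), 5' to 3', with the seed, bases 2 to 8, which pairs with target mRNAs, in capitals. In mouse embryos miR-196 is known to direct cleavage of the Hoxb8 mRNA.
mmu-miR-10a-5p: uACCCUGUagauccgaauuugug
mmu-miR-10b-5p: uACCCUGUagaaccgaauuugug
mmu-miR-196a-5p: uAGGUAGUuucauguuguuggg
mmu-miR-196b-5p: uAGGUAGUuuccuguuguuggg
The pair in the miR-10 family has the seed ACCCUGU in common and differs by U12A, the base of miR-10a first, counted from 1 at the 5' end. The miR-196 pair has the seed AGGUAGU and differs by A12C, the base of miR-196a first.

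miR-10a is encoded in the Hoxb cluster (chr11:96317186-96317208, plus strand, GRCm38) and miR-10b in the Hoxd cluster (chr2:74726074-74726096, plus strand). miR-196a has a gene in Hoxb (chr11:96265187-96265208, plus strand) and another in Hoxc (chr15:102973365-102973386, plus strand), and miR-196b lies in Hoxa (chr6:52230129-52230150, minus strand). In the authors' deposited tables Mir196a-1 of Hoxb had base means of 59.5 with Matrigel, 53.2 with fibrin, 55.3 with collagen I and 55.7 with the printed cultures. Mir196a-2 of Hoxc, which encodes the same mature sequence, was at 0 in the authors' 4 deposited tables. Mir196b had base means of 34.4, 32.3, 41.3 and 35.3 in the authors' deposited tables, in the same order, and Mir10a 11.1, 12.9, 10.4 and 12.0. Mir10b of Hoxd and Mir615 of Hoxc were at 0 throughout the authors' deposited tables. The copies with reads thus all lay in Hoxa and Hoxb. None of the microRNA genes with an adjusted p changed, with adjusted p between 0.422 and 0.992 in the authors' deposited tables. These reads fall on the precursor gene in a library of total RNA and do not measure the mature microRNA. Mir196b overlaps exons of Hoxa9 on the same strand, over 1.52% of the Hoxa9 exon length. Its reads therefore cannot be assigned with certainty and may be those of Hoxa9. Mir10a lies within the span of the Hoxb3 gene on the same strand, so its reads cannot be assigned with certainty either.

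The iRECs transcribed the Hoxa and Hoxb clusters and hardly any of Hoxc and Hoxd. With every microenvironment, 20 members had base means of 10 or more in the authors' tables as deposited: all 11 Hoxa genes and 9 of the 10 Hoxb genes. The other 19, which are Hoxb1 and all 18 members of Hoxc and Hoxd, stayed under 10 in each of the authors' deposited tables. Hoxb genes held 73.3% of the summed Hox base means with Matrigel, 73.5% with fibrin, 70.1% with collagen I and 71.6% with the printed cultures in the authors' deposited tables. Hoxa genes held 26.7%, 26.5%, 29.9% and 28.4% in the authors' deposited tables, in the same order. Hoxc genes held 0.00501% to 0.0107% and Hoxd genes 0.0225% to 0.0244%.

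Of the 19 low members, 11 were at 0 in the authors' 4 deposited tables: Hoxc9, Hoxc10 and Hoxc12, and Hoxd1, Hoxd3 and Hoxd8 to Hoxd13. A gene at 0 had no read in any of the 6 libraries of a table, and a count of 0 allows a base mean of up to 0.5, or 3 normalized reads over the 6 libraries, from counting error alone. Hoxb1, a hindbrain gene at the 3' end of its cluster, and Hoxc6, Hoxc8, Hoxc11 and Hoxc13 were at 0 in some of the authors' deposited tables. Their highest base mean was 1.15, for Hoxc13 with collagen I. Hoxc4 and Hoxc5 were above 0 in the authors' 4 deposited tables, at 0.511 to 0.543 and 0.255 to 1.10. The tables have their 2D libraries in common, so the same few 2D reads can enter each, and these are not separate observations. The log2 fold changes of Hoxc4 were negative in all 4, from -0.07 to -0.11. Those of Hoxc5 were negative except in Matrigel, at 0.04. Which libraries held these reads was not tested. Over all 9 Hoxc genes and 6 libraries the authors' deposited tables amount to between 6.52 normalized reads, with fibrin, and 14.0, with Matrigel. These sums, like those of Hoxd, include any reads of the shared 2D libraries. The reads of Hoxd, 30.3, 31.8, 27.2 and 28.9 in the same order, all came from Hoxd4, with base means of 4.53 to 5.30 in the authors' deposited tables. Exons of Hoxd4 overlap those of Hoxd3 and Gm28230 combined on the same strand over 52.3% of their length, so those reads cannot be assigned with certainty. Hoxd4 received an adjusted p in the authors' deposited table for the printed cultures, log2 -0.30 ± 0.19 (adjusted p = 0.622.) In bulk RNA, fewer cells with a transcript and less of it per cell cannot be told apart, so low levels in all cells and higher levels in a few give the same values.

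**Figure D1:**
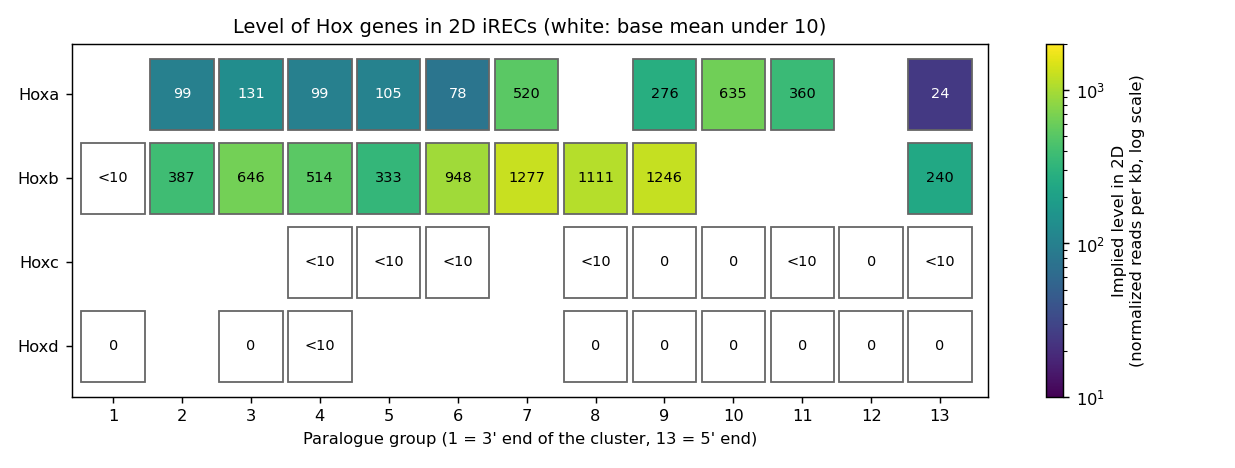
Implied level of Hox genes in 2D, in normalized reads per kilobase of transcript (colour, log scale; the number in each box is the level), by cluster (rows) and paralogue group (columns). White boxes are the 19 genes with base means under 10, and 0 marks the 11 genes without a read; the filled boxes are in the Hoxa and Hoxb rows, up to 1277 for Hoxb7.

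In 12 of the 13 paralogue groups at least 1 member reached a base mean of 10 in the authors' deposited tables. Group 12, which exists in Hoxc and Hoxd, had none. Groups 8, 10 and 11 each had 1, namely Hoxb8, Hoxa10, known for its role in the uterus, and Hoxa11. Of the group 11 genes that act in kidney development, Hoxa11 had base means of 796 to 902 in the authors' deposited tables, while Hoxc11 did not pass 0.333 and Hoxd11 was at 0. At the 5' end, Hoxa13 and Hoxb13, at 30.6 to 49.0 and 486 to 781, were above 10 in the authors' deposited tables.

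Levels per kilobase, taken over the longest transcript with a RefSeq match, were highest for Hoxb6 to Hoxb9. In 2D the implied level from the authors' deposited tables was 1277 normalized reads per kilobase for Hoxb7, a gene of the ureteric bud, 1246 for Hoxb9, 1111 for Hoxb8 and 948 for Hoxb6, a gene of lateral mesoderm. Hoxb3 followed with 646, Hoxa10 with 635, Hoxa7 with 520 and Hoxb4, which expands blood stem cells when it is overexpressed, with 514 in the authors' deposited tables. Hoxb2 reached 387, Hoxa11 360, Hoxb5 333, Hoxa9, known from leukaemia, 276 and Hoxb13, a gene of the prostate and the tail end, 240 in the same deposited tables of the authors. The 3' Hoxa genes were lower, from 131 for Hoxa3, which is needed for the thymus, to 77.8 for Hoxa6, and Hoxa13, a limb and genital tract gene, was lowest with 24.1 in the authors' deposited tables. No error is available for a level within 1 condition, so the order of close neighbours such as Hoxb7 and Hoxb9 is not read. With the length of all annotated exons, an alternative added after seeing the data, 9 of the 10 highest members were shared, and Hoxb13 took the place of Hoxb2.

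In 8 paralogue groups both a Hoxa and a Hoxb gene were expressed, and the Hoxb gene had the higher level per kilobase in 8 of 8 in each of the 5 conditions, and in 2D also with the length of all annotated exons. The ratio of the Hoxb to the Hoxa gene, from the authors' deposited tables, had a median of 5.17 in Matrigel, with a range of 3.02 to 18.1. The median ratio was 5.75 in fibrin, 4.38 in collagen I, 4.57 in the printed cultures and 4.72 in 2D, where the range was 2.46 to 12.2. With the length of all annotated exons the ratios in 2D ran from 1.82 to 18.8. These ratios rest on annotated lengths and carry no error.

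**Figure D2:**
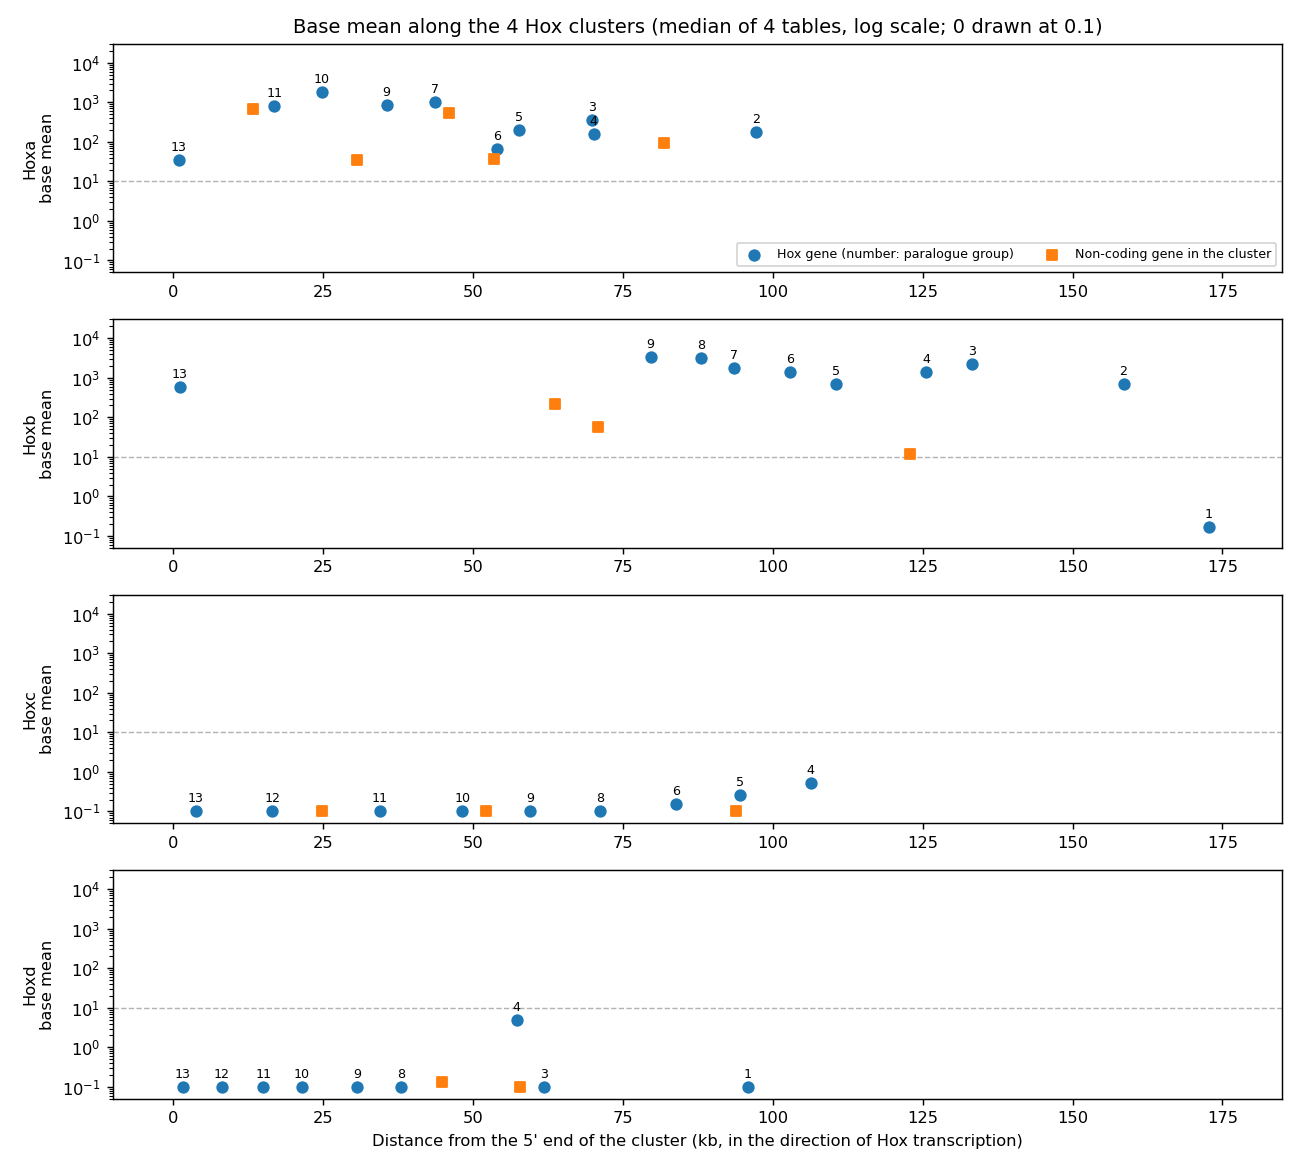
Base mean (median of the 4 tables, log scale, 0 drawn at 0.1) of the Hox genes and of non-coding genes along each cluster, by distance in kilobases from the 5' end of the cluster, with the paralogue group above each Hox gene and a dashed line at 10. Points lie above the line along Hoxa and Hoxb except Hoxb1, and below it along Hoxc and Hoxd, where Hoxd4 is highest.

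The clusters span 105.5 kb on chromosome 6 for Hoxa, 173.9 kb on chromosome 11 for Hoxb, 115.7 kb on chromosome 15 for Hoxc and 96.9 kb on chromosome 2 for Hoxd (GRCm38). Non-coding genes inside the clusters followed the same division. In Hoxa the authors' deposited tables gave base means of 663 to 775 for Hoxa11os, the antisense transcript of Hoxa11, and 536 to 553 for Mira. In Hoxb, Gm53 was at 208 to 231 in the authors' deposited tables. Hotair, the long non-coding RNA of Hoxc, was at 0, and Hoxd3os1 of Hoxd was at 0.128 to 0.136 in the authors' deposited tables. Of 30 listed non-coding genes of the clusters 13 were in the tables, 8 had an adjusted p in each, and 0 of 8 changed in any of the 4 comparisons; the other 17 were not analysed here.

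Several genes near the silent clusters were transcribed, though Evx2, the listed gene closest to Hoxd, had no reads. Beside Hoxc the authors' deposited tables gave base means of 12856 to 14035 for the heterochromatin protein gene Cbx5 and 1439 to 1568 for the DNA repair gene Smug1. Beside Hoxd they gave, in the authors' deposited tables, 906 to 1087 for Lnpk and 1939 to 2200 for the mitochondrial import gene Mtx2. Evx1 and Evx2, homeobox genes next to the 5' ends of Hoxa and Hoxd, were at 0 in the authors' 4 deposited tables. Of 21 listed neighbours 18 were in the tables and 14 had an adjusted p, and 1 changed in 1 comparison: Nfe2l1, a transcription factor gene beyond Hoxb, fell in collagen I, log2 -0.65 ± 0.21 (adjusted p = 0.0244) in the authors' deposited table.

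Paralogue group 8 has an expressed gene, Hoxb8, and silent ones. The 250 bases upstream of a RefSeq start of Hoxb8 and of Hoxd8 are shown to compare an expressed gene with a silent one. The Hoxb8 stretch lies inside the annotated gene, which begins at 96279401, while that of Hoxd8 lies directly before its gene. Which start of Hoxb8 the cells used was not measured. The stretches are chr11:96281655-96281904 and chr2:74704365-74704614, plus strand (RefSeq, GRCm38.p6), with each CG, the dinucleotide that can be methylated, in capitals.
Hoxb8: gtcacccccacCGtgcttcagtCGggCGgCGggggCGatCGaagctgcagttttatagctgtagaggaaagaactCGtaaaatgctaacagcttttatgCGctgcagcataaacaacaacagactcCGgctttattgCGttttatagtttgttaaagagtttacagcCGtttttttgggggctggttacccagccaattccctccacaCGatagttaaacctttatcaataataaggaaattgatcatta
Hoxd8: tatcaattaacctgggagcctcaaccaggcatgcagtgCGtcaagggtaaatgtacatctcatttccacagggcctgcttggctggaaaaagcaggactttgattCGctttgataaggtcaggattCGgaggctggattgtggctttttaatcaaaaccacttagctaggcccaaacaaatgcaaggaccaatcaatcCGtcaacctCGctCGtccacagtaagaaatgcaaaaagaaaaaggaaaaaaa
The Hoxb8 stretch holds 12 CG and that of Hoxd8 holds 6. Over the 22 members with an entry, the ranges of expressed and silent clusters overlapped in this measure. The 13 stretches of 12 Hoxa and Hoxb genes held a median of 13 CG, with a range of 3 to 35, and the 11 stretches of 10 Hoxc and Hoxd genes a median of 12, with a range of 2 to 31. Over 32851 promoters of the same length the median was 6, and 37.8% held 10 or more CG, against 8 of 13 and 7 of 11 here. The TATA motif TATAAA, searched on both strands, was in 2 of 13 and 2 of 11, against 12.4% of all. Such matches describe the sequence and say nothing of the factors bound there.

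Of the expressed Hox genes, Hoxb13 and Hoxb5 changed in Matrigel, and none changed in fibrin, collagen I or the printed cultures. In the authors' deposited table for Matrigel 2 of 20 members with an adjusted p changed, both higher, against 6.36% of the 14602 genes with an adjusted p, 4.03% higher and 2.32% lower. In fibrin 0 of 20 members changed, against 8.3% of all genes in the authors' deposited table. In collagen I it was 0 of 20, against 11.2% of all genes, and in the printed cultures 0 of 21, against 3.18%, in the authors' deposited tables. At an unadjusted p under 0.05 the member counts were 5 of 20 in Matrigel (16.2% of all genes), 3 of 20 in fibrin (19.3%), 1 of 20 with collagen I (22.9%) and 0 of 21 with printing (11.4%), from the authors' DESeq2 tables as deposited. No other count test could be run without values per library.

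Hoxb13 had the largest difference of the members in any table. It lies at the 5' end of Hoxb (gene 15408, chromosome 11, 96194316 to 96196610, plus strand, GRCm38), 74.7 kb from Hoxb9, and is known for its part in the prostate, the colon and the tail. Its base means in the authors' deposited tables were 781 with Matrigel, 628 with fibrin, 486 with collagen I and 529 with the printed cultures. The implied level in the authors' deposited table for Matrigel was 1018 in Matrigel, against 543 in 2D. Hoxb13 rose in Matrigel in the authors' deposited table, log2 0.91 ± 0.19 (adjusted p = 0.00011), or 1.87-fold. In fibrin the log2 fold change was 0.51 ± 0.23 with adjusted p = 0.179 in the authors' deposited table, with implied levels of 737 in fibrin and 519 in 2D. Collagen I, at -0.06 ± 0.24 with adjusted p = 0.920, and the printed cultures, at -0.06 ± 0.26 with adjusted p = 0.987, had fold changes of Hoxb13 within their standard errors of 0 in the authors' deposited tables.

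Hoxb5 was the other member that changed. It lies in the middle of Hoxb (gene 15413, chromosome 11, 96303512 to 96306121, plus strand, GRCm38) and acts in the neural crest and the enteric nervous system. Its base means were 819, 666, 577 and 721 in the authors' deposited tables, in the order Matrigel, fibrin, collagen I and printed. The implied level in the authors' deposited table for Matrigel was 995 in Matrigel, against 644 in 2D. Hoxb5 rose in Matrigel, log2 0.63 ± 0.18 (adjusted p = 0.0140), or 1.55-fold, in the authors' deposited table. Its log2 fold changes in fibrin, collagen I and the printed cultures were 0.21 ± 0.22, -0.14 ± 0.26 and 0.28 ± 0.23, with adjusted p of 0.705 to 0.817 in the authors' deposited tables. No exon of Hoxb13 overlaps another annotated gene, and 3.59% of those of Hoxb5 lie opposite an antisense gene.

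Markers moved with the same comparison. In Matrigel 4 of the 13 tubule markers with an adjusted p rose and none fell in the authors' deposited table, led by the epithelial cadherin Cdh1 at log2 0.90 ± 0.16 (adjusted p = 2e-06.) The summed implied level of the 15 tubule markers was 194653 in Matrigel, against 167222 in 2D, in the authors' deposited table. These markers include introduced factors, Pax8 and Hnf4a among them, and introduced and own copies were not told apart. The 16 fibroblast markers summed to 7777 in Matrigel, against 8957 in 2D, in the authors' deposited table. Of 13 fibroblast markers Twist2 rose and Col5a1 fell in Matrigel in the authors' deposited table. Markers of endothelial cells summed to 74.0 in Matrigel, against 79.7 in 2D, and those of immune cells to 281 in Matrigel, against 402 in 2D, with Kdr, Emcn and Cd3e at 0 in the authors' deposited table. The part of these markers in the Hoxb13 and Hoxb5 values was not tested.

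**Figure D3:**
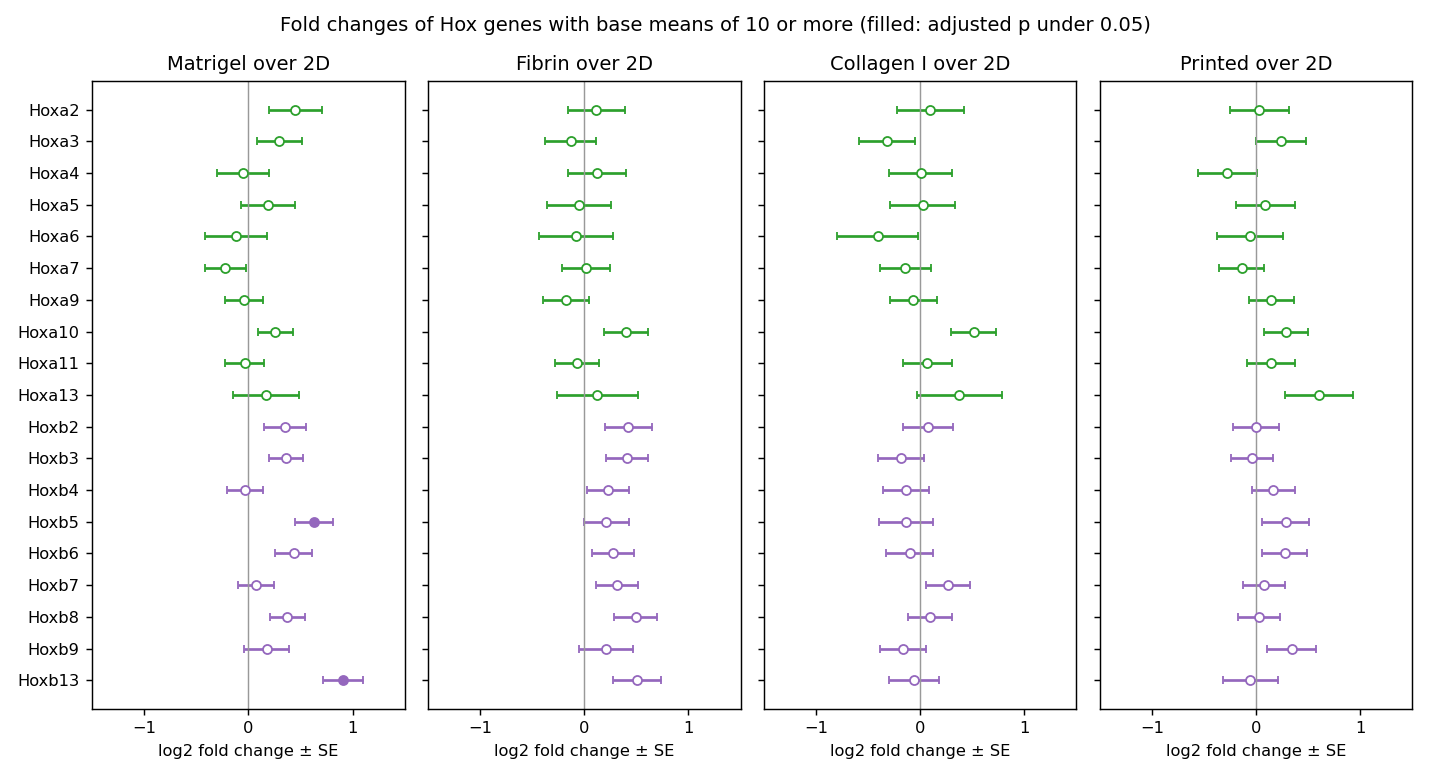
Log2 fold change ± standard error of Hox genes with base means of 10 or more, each microenvironment over 2D (panels), with Hoxa genes in green, Hoxb genes in purple and filled points where the adjusted p was under 0.05. The filled points are Hoxb5 and Hoxb13 in Matrigel, and in fibrin the 9 Hoxb points all lie right of 0.

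The Hoxb genes, with Hoxb13 and Hoxb5 counted among them, lay mostly above 0 in Matrigel and fibrin. Apart from Hoxb13 and Hoxb5 in Matrigel, none passed the test. The median log2 fold change of the 9 Hoxb genes with an adjusted p was 0.36 in Matrigel, with 8 of 9 above 0, and 0.31 in fibrin, with 9 of 9 above 0, in the authors' deposited tables. It was -0.10 in collagen I, with 3 of 9 above 0, and 0.08 in the printed cultures, with 6 of 9, in the authors' deposited tables. The 11 Hoxa genes had medians of 0.09, -0.06, 0.02 and 0.09 in the same order, with 6, 5, 7 and 8 of 11 above 0 in the authors' deposited tables. Over all genes with an adjusted p the medians lay within 0.02 of 0, and 49.3%, 50.5%, 51.1% and 51.7% were above 0. The 4 comparisons have their 2D libraries in common, so like signs in Matrigel and fibrin are not separate observations. As sums of implied levels, Hoxb reached 17731 in Matrigel, against 14352 in 2D, a ratio of 1.24, and 17810 in fibrin, against 14062 in 2D, a ratio of 1.27, in the authors' deposited tables. It reached 13255 in collagen I, against 13576 in 2D, and 16091 in the printed cultures, against 14568 in 2D, ratios of 0.976 and 1.10. For Hoxa the ratios to 2D were 1.05, 1.06, 1.10 and 1.09 in the same order.

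Among single members, Hoxb8 had the highest base mean of any Hox gene with fibrin, 3492, and a log2 fold change of 0.49 ± 0.21 with adjusted p = 0.136 in the authors' deposited table. Hoxb3, a hindbrain gene, was at 0.36 ± 0.17 in Matrigel and 0.41 ± 0.20 in fibrin, with adjusted p of 0.220 and 0.227 in the authors' deposited tables. Hoxb6 was at 0.43 ± 0.18 in Matrigel with adjusted p = 0.140 in the authors' deposited table. Hoxa10 had positive log2 fold changes in all the authors' deposited tables, 0.26 ± 0.17 in Matrigel, 0.40 ± 0.21 in fibrin, 0.51 ± 0.22 in collagen I and 0.28 ± 0.22 in the printed cultures, and its lowest adjusted p was 0.119, in collagen I. None of these passed the test.

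Hoxb7 was at 0.07 ± 0.17, 0.31 ± 0.20, 0.26 ± 0.21 and 0.08 ± 0.20 in the authors' deposited tables for Matrigel, fibrin, collagen I and the printed cultures. Hoxb9 was at 0.17 ± 0.22, 0.21 ± 0.26, -0.17 ± 0.22 and 0.34 ± 0.23 in the authors' deposited tables, in the same order. Hoxb4 was at -0.03 ± 0.17, 0.23 ± 0.20, -0.14 ± 0.22 and 0.16 ± 0.21. Hoxa7, which patterns the thorax, was at -0.22 ± 0.20, 0.02 ± 0.23, -0.14 ± 0.24 and -0.14 ± 0.21 in the authors' deposited tables. Hoxa9 was at -0.04 ± 0.18, -0.18 ± 0.22, -0.07 ± 0.23 and 0.14 ± 0.21, and Hoxa11 at -0.04 ± 0.18, -0.07 ± 0.21, 0.07 ± 0.23 and 0.14 ± 0.23 in the authors' deposited tables. Hoxa13, named after its values were seen, had the largest fold change of the Hox members in the authors' deposited table for the printed cultures. It was log2 0.60 ± 0.33 (adjusted p = 0.485), at a base mean of 49.0. Hoxa2 to Hoxa6 and Hoxb2 ran from -0.41 for Hoxa6 in collagen I to 0.45 for Hoxa2 in Matrigel in the authors' deposited tables. Hoxb3, Hoxa11, Hoxb2, Hoxa3 and Hoxa7 overlap antisense genes over 20.4% to 52.9% of their exons, and reads of both strands cannot be told apart, since the strand setting of the counts is not given in the sources used here.

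For the 18 members with base means of 100 or more, 95% intervals around the authors' deposited log2 fold changes give the range that the standard errors leave. All intervals lay within 1 log2 unit of 0 in fibrin, collagen I and the printed cultures, as did those of 17 members in Matrigel, where Hoxb13 reached 1.28. Among the extremes of the intervals from the authors' deposited tables were -0.61 for Hoxa7 in Matrigel, 0.96 for Hoxb13 in fibrin, -0.85 for Hoxa3 and 0.94 for Hoxa10 in collagen I, and -0.83 for Hoxa4 and 0.80 for Hoxb9 in the printed cultures. Judged from the values, the deposited fold changes are shrunken towards 0, and these intervals apply to the shrunken values.

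**Figure D4:**
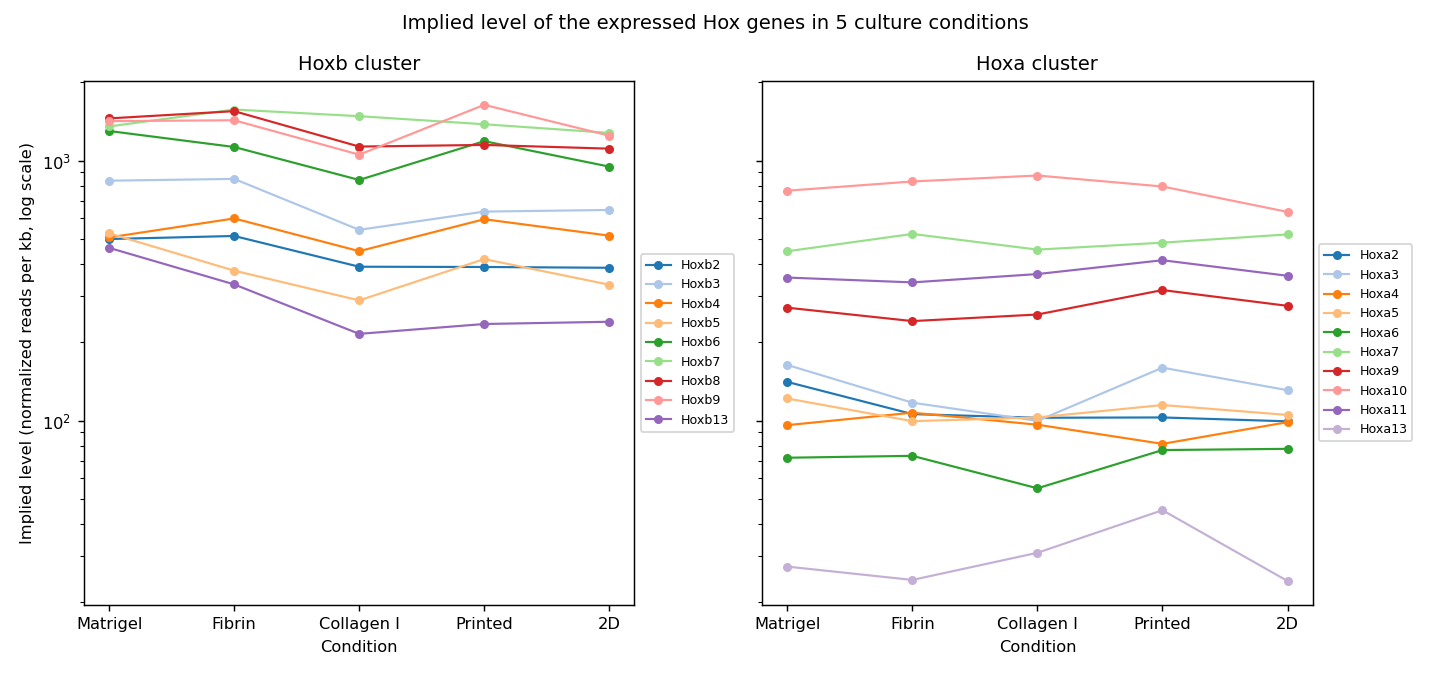
Implied level in normalized reads per kilobase (log scale) of the expressed Hoxb genes (left) and Hoxa genes (right) in the 4 microenvironments and in 2D, the lines joining values of the same gene and no error being available. Hoxb13 is at 462 in Matrigel, against 240 in 2D, and Hoxb7 lies between 1277 and 1571 in all 5 conditions.

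Differences between 2 microenvironments were tested for 20 members in each of 6 pairs, as the difference of the authors' deposited log2 fold changes over its standard error. None passed. Of all genes 1.13% passed between Matrigel and fibrin, 0.478% between Matrigel and collagen I, 0.612% between Matrigel and printed, 0.548% between fibrin and collagen I, 1.4% between fibrin and printed and 0.89% between collagen I and printed. Of the members, 3 had an unadjusted p under 0.05 between Matrigel and collagen I, 1 between Matrigel and printed and 1 between fibrin and collagen I, beside 6.49%, 4.65% and 2.96% of all genes. In the other pairs, Matrigel and fibrin, fibrin and printed, and collagen I and printed, it was 0 members, beside 6.34%, 6.72% and 7.05% of all genes. Hoxb13 differed by log2 0.97 ± 0.31 between Matrigel and collagen I (adjusted p = 0.157) and by 0.96 ± 0.32 between Matrigel and the printed cultures (adjusted p = 0.235), from the authors' deposited tables. Hoxb5 differed by 0.76 ± 0.32 between Matrigel and collagen I (adjusted p = 0.520). The pairs have their 2D libraries in common, which the standard errors above leave out. With a correlation of 0.5 for the shared libraries, 3 differences passed: Hoxb13 (adjusted p = 0.00104, from 0.00104 to 0.130 over the alternatives) and Hoxb5 (0.0273, from 0.0273 to 0.527) between Matrigel and collagen I, and Hoxb13 between Matrigel and the printed cultures (0.00282, from 0.00282 to 0.187). In that setting 4.19% and 3.04% of all genes passed in these pairs. Without the correlation, the middle of the statistics had a spread of 0.990 between Matrigel and collagen I and 0.829 between Matrigel and printed. A standard normal has a spread of 1, so the setting of 0.5 may make the standard errors too small. With a null taken from the middle of the statistics, Hoxb13 passed between Matrigel and the printed cultures and Hoxb3 between fibrin and collagen I, beside 1.62% and 3.75% of all genes.

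Hox proteins bind DNA with cofactors of the Pbx, Meis and Pknox families. Of 11 listed cofactors and partners 10 had an adjusted p. Geminin (Gmnn), a replication licensing inhibitor that also binds Hox proteins, rose in fibrin by log2 1.04 ± 0.21, in collagen I by 1.12 ± 0.23 and in the printed cultures by 0.73 ± 0.22 in the authors' deposited tables. The chromatin protein gene Hmgb1 rose in the same comparisons, by 1.07 ± 0.22, 1.08 ± 0.22 and 0.65 ± 0.20 in the authors' deposited tables. Both are also proliferation or general chromatin genes. The list's median log2 fold changes were 0.14, 0.10, 0.19 and 0.16 in Matrigel, fibrin, collagen I and the printed cultures, against medians within 0.02 of 0 over all genes, from the authors' deposited tables.

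Polycomb complexes keep silent Hox clusters off and Trithorax complexes keep active ones on. Of 31 Polycomb genes none changed in Matrigel or the printed cultures in the authors' deposited tables. Rbbp7, a histone-binding subunit, rose in fibrin, log2 0.59 ± 0.20, and in collagen I, 0.58 ± 0.21, and Jarid2, a PRC2 partner, fell in collagen I, -0.81 ± 0.28, in the authors' deposited tables. Of 16 Trithorax and H3K27 demethylase genes Dpy30, a core subunit of the H3K4 methyltransferases, rose in fibrin by log2 0.78 ± 0.21 and in collagen I by 0.97 ± 0.22 in the authors' deposited tables. Kdm6b, an H3K27 demethylase, fell in collagen I by 0.76 on the log2 scale, and none of the 16 changed in Matrigel or the printed cultures in the authors' deposited tables. The median log2 fold changes from the authors' deposited tables were 0.07, 0.07, 0.03 and 0.14 for Polycomb and 0.01, -0.08, -0.13 and 0.06 for Trithorax in Matrigel, fibrin, collagen I and the printed cultures.

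Of 18 genes that act with the group 11 Hox genes in the kidney, 11, 13, 10 and 12 had an adjusted p in the same order of comparisons. Six2, which Hox11 proteins switch on in nephron progenitors, was at 0 in the authors' 4 deposited tables. Gdnf, the other known target, had base means of 1.48 with Matrigel, 2.30 with collagen I and 1.90 with the printed cultures in the authors' deposited tables. With fibrin it was at 14.5 and rose, log2 1.35 ± 0.39 (adjusted p = 0.0114), in the authors' deposited table. This base mean is low, and the deposited fold change is shrunken towards 0. How the Gdnf reads spread over the fibrin libraries cannot be seen. Lhx1 fell in Matrigel, log2 -0.78 ± 0.23, and in collagen I, -1.16 ± 0.27, in the authors' deposited tables. Pax8, an introduced factor, fell in fibrin, -0.63 ± 0.19, and in collagen I, -0.66 ± 0.20, in the authors' deposited tables, where introduced and own copies were not told apart. In the printed cultures none of the 12 changed. The list's median log2 fold changes from the authors' deposited tables were 0.13, -0.04, -0.01 and 0.06.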

How the data were processed

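Values were the 4 tables that the authors deposited, 1 per microenvironment against 2D, with 3 libraries per condition and 0 columns per library. The submitters' processing notes name build mm10, DESeq2 1.22.1, featureCounts 1.6.3, STAR 2.6.0b-1, Trim Galore 0.4.3 and FastQC 0.72. How strand was treated, which annotation was used and which design was fitted is not given in the sources used here. As a unit, the deposited base mean is a signal, the mean of the authors' read counts after division by size factors. The deposited fold change and its standard error are log2 values from the authors' fit, shrunken towards 0 as judged from the values, and implied levels carry this shrinkage. The deposited Wald statistic is a score, and each deposited p-value and adjusted p-value is the authors'. An adjusted p was given for 14602 genes (Matrigel), 14636 (fibrin), 14064 (collagen I) and 15116 (printed). Nothing was refitted. The table of the printed cultures names collagen alone, while the labels give fibrin and collagen I.

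From these values Python 3.11.15, pandas 2.3.3 and scipy 1.17.1 computed implied levels (for a fold change f, 2D is the base mean times 2 over 1 + f), 95% intervals (normal, from the standard errors) and differences between microenvironments (two-sided normal p, Benjamini-Hochberg over all genes of a pair); the difference test was tested on simulated data. Exons and lengths came from GENCODE M21 (GRCm38). Of all gene identifiers 93.0% were in the RefSeq table (GRCm38.p6), as were all 39 members, and 22 members had a promoter entry. Median standard errors of a log2 fold change at base means of 100 or more were 0.19, 0.23, 0.23 and 0.22, which sets the precision.

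The members and the gene lists were chosen with earlier results of these data known. Named members are those that changed in a table or differed in a pair, the 10 with the highest median base mean and any with a log2 fold change of 1 or more at a base mean of 10 or more; of each gene list at most 4 changed genes are named. Hoxa13, the silent members, non-coding genes, cluster neighbours and marker genes named for their level were added after their values were seen. The alternatives were other thresholds and adjustments, a null taken from the middle part of the statistics and centring on the median gene. Others were base-mean levels set against the 2D level of the other tables, a correlation for the shared 2D libraries and another transcript length. Results on a few genes are not reported here.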

Additional observations from a re-analysis of the deposited data

How the results depend on the processing

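At an adjusted p threshold of 0.01 the count of changed members in Matrigel was 1, Hoxb13, and Hoxb5 was lost (3.69% of all genes passed). It stayed at 2 under the 5 other alternatives, a threshold of 0.1, adjustment over all genes with a p-value, adjustment over genes with base means of 100 or more, a null taken from the middle of the Wald statistics, and centring on the median gene. In fibrin, collagen I and the printed cultures it was 0 under all of these. Over these 6 alternatives the share of all genes called ran from 3.69% to 8.41% in Matrigel, 4.95% to 11.6% in fibrin, 6.31% to 15.0% in collagen I and 1.69% to 4.43% in the printed cultures. For differences between microenvironments the count went to 3 with a correlation of 0.5 for the shared 2D libraries, and to 2 with a null taken from the middle of the statistics, which were Hoxb13 between Matrigel and the printed cultures and Hoxb3 between fibrin and collagen I (1.62% and 3.75% of all genes in these pairs). It was 0 with adjustment over all 6 pairs and at a threshold of 0.1. Of the 48 fold changes of named members, 48 kept their side of the threshold under centring and under the null from the data. Under centring 1 uncalled value changed sign, Hoxa7 in fibrin at log2 -0.0049, against 0.015. Another alternative took the 2D level from the median over the other tables and the rest of the base mean as the microenvironment level. The tables were normalized separately, so their differences in scale enter these values. With it, 47 moved by less than their standard error, and Hoxb13 in collagen I was at log2 -0.32, against -0.06 as deposited. How far scale accounts for this was not tested. Under this alternative 8 values changed sign, all uncalled and at most 0.092 from 0 in the deposited tables. No paired analysis was possible because the tables have no column per library, and for the same reason leaving out each replicate was not run. Depth limits the silent clusters: a base mean under 0.5 cannot be told from 0.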

Other observations

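Genes upstream of Hox clusters in the embryo, mainly those of retinoic acid metabolism, moved one by one. Of 23 listed, 15 had an adjusted p in Matrigel, 14 in fibrin, 14 in collagen I and 15 in the printed cultures in the authors' deposited tables. Rdh10, which makes retinal, fell in Matrigel, log2 -0.79 ± 0.23 (adjusted p = 0.0132) in the authors' deposited table. Aldh1a2, which makes retinoic acid, rose in collagen I, log2 0.73 ± 0.21 (adjusted p = 0.00697), at a base mean of 16777 in the authors' deposited table. Aldh1a3, a second retinoic acid enzyme, rose in the printed cultures, log2 1.78 ± 0.30 (adjusted p = 8.6e-07), in the authors' deposited table. None changed in fibrin. The list's median log2 fold changes from the authors' deposited tables were -0.02, -0.09, -0.29 and 0.03 in Matrigel, fibrin, collagen I and the printed cultures.

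Of 40 other transcription factors of body position, such as those of the Dlx, Tbx and Irx families, 14 to 16 were at 0 and 14 to 16 had an adjusted p in the authors' deposited tables. Irx2 fell in collagen I, log2 -1.07 ± 0.30 (adjusted p = 0.0055), and 0 others changed in the authors' deposited tables. Markers of other cells were mixed in the other comparisons. Of the tubule markers 0 rose and 3 fell in fibrin, 0 rose and 4 fell in collagen I and none changed in the printed cultures, in the authors' deposited tables. Pax8, an introduced factor, was among those that fell in fibrin and in collagen I. Of the fibroblast markers 2 rose and 3 fell in fibrin, 2 rose and 2 fell in collagen I and 2 rose in the printed cultures, in the authors' deposited tables. Twist2, a mesenchymal factor, rose in the authors' 4 deposited tables, from log2 0.84 ± 0.21 in the printed cultures to 1.30 ± 0.21 in collagen I. Cd68, a lysosomal macrophage marker, rose in the printed cultures (adjusted p = 2.1e-09), and Itgam in fibrin, log2 1.24 ± 0.40, in the authors' deposited tables. No endothelial marker changed.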
